A study of Mus musculus with 10 samples.

Results

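The genes described here are 40 markers of the somatic cells of the mouse testis, read on the arrays of germ cells: 14 of Sertoli cells, 8 of Leydig cells, 11 of macrophages, 4 of endothelial cells and 3 of peritubular myoid cells. They were chosen by name, as symbols that mark these cells, but with earlier results of these data known. Of the 40, 39 had at least 1 probe on the array, out of 27372 gene names in all, and 1 (Insl3, the insulin-like hormone of Leydig cells) was not analysed here. The 39 genes had 50 probes, and each gene was read from its brightest. The arrays were 1-colour Agilent mouse arrays, 1 per sample and 10 in all, and every level below is the log2 signal of a probe minus the 75th percentile of its array, so that 0 is the level of the 75th percentile.

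The cultured material was germline stem (GS) cells, spermatogonia that self-renew in culture, which had been deprived of FGF2 and GDNF for 3 days and were then kept for 24 hr with 100 ng/mL FGF5 (2 samples) or with 0 ng/mL (2 samples). The labels give their strain as C57BL/6, and the methods of the study an intercross of C57BL/6 and ICR. The sorted material was the GFP+ fraction from testes of Gfrα1-GFP mice 2.5 months of age, either WT (3 samples) or Fgf5-/- (3 samples), all on C57BL/6 and all carrying the reporter. The GS cells are labelled wild type, and the Fgf5 allele of the mutant mice is go-moja. GFRα1 is the GDNF receptor that marks the undifferentiated spermatogonia with stem cell activity. Neither the labels nor the methods say whether samples of a group came from separate mice or cultures, so p-values measure the spread between these samples, which may be technical. Whether feeder cells were present in the cultured samples is not given in the sources used here.

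In the testis the Sertoli cells form the wall of the seminiferous tubule, surround the germ cells and secrete GDNF, inhibins and carrier proteins. Peritubular myoid cells contract around the tubule. Outside it, Leydig cells make testosterone from cholesterol, macrophages lie beside them, and endothelial cells line the vessels. A gene that marks one of these cells against the other somatic cells may still be transcribed in germ cells, so that a signal in germ cell RNA does not by itself name its source. In bulk RNA of this kind, fewer cells of a type and less RNA per cell cannot be told apart.

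The arrays were germ cell arrays by their own markers. All 12 listed genes of undifferentiated spermatogonia were well above background on all 10 arrays, and Ddx4, the germ cell RNA helicase, lay between 5.03 and 5.28. The 12 genes were not level between the materials. In sorted against cultured cells 7 were higher and 1 lower, with a median difference of 1.13, where 25.7% and 41.9% of all probes tested were. Gfra1 itself read -2.53 and -0.52 with FGF5, -4.07 and -2.09 without it, and 0.58 to 0.89 in sorted cells. The probe of Fgf5 itself read -2.89 and -3.92 with FGF5 and -2.81 and -2.88 without it, and -5.47, -6.59 and -6.66 in WT and -3.42, -6.83 and -6.90 in Fgf5-/- cells. It was well above background on 0 of 3 WT arrays and on 1 of 3 Fgf5-/- arrays (replicate 1). It therefore checks no genotype label, and which part of the gene the go-moja allele lacks is not given in the sources used here. The share of probes above background ran from 55.3% to 65.9% and was highest on Fgf5-/- replicate 1. That array also stood apart in level: it was below the other 5 sorted arrays for 37.5% of the probes tested in the sorted experiment and above all of them for 26.1%, where the shares for the other 5 arrays ran from 7.79% to 15.9% and from 8.46% to 20.8%. The 4 cultured arrays lay on 1 slide and the 6 sorted arrays on another, so material, strain and slide cannot be told apart wherever sorted and cultured levels are compared.

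Of the 39 genes, 19 were well above background on all 10 arrays, 14 on some of them and 6 on none. The 6 at background throughout were Amh, the anti-Müllerian hormone of Sertoli cells, Fshr, the FSH receptor of Sertoli cells, Cyp11a1, which cuts the side chain of cholesterol in the first step of steroid synthesis, Lhcgr, the LH receptor of Leydig cells, Lyz2, the lysozyme of macrophages, and C1qc, a chain of complement C1q. Amh read -6.88 and -5.96 with FGF5 and -5.40 and -5.74 without it, and -6.75, -7.06 and -6.64 in WT and -7.14, -6.68 and -6.34 in Fgf5-/- cells. Lyz2 read -6.42 and -6.70 with FGF5 and -6.95 and -6.95 without it, and -7.45, -7.25 and -6.88 in WT and -7.51, -6.82 and -6.90 in Fgf5-/- cells. No array of any group measured either of them. A further 3 genes were measured on a single array. Hsd3b1, the dehydrogenase that turns pregnenolone into progesterone, read -7.05 and -6.92 with FGF5 and -4.31 and -6.89 without it, and -7.17, -7.23 and -6.87 in WT and -7.47, -6.80 and -6.88 in Fgf5-/- cells. It was above background on GS cells without FGF5 replicate 1 alone. C1qa, another chain of C1q, was above background on Fgf5-/- replicate 3 alone, where it read -2.79. Its other sorted arrays read -6.74, -6.77 and -6.79 in WT and -7.50 and -6.51 in Fgf5-/- cells, and its cultured arrays -5.62 and -5.80 with FGF5 and -6.23 and -5.16 without it. Vcam1, an adhesion molecule of peritubular and activated endothelial cells, was above background on its brightest probe only on GS cells with FGF5 replicate 1, at -3.06, with -7.57 to -5.25 elsewhere. A second probe of Vcam1 was above background on a single WT array and on no cultured one. Its highest value was -4.66, in WT replicate 1. Inhba, the activin βA subunit, was measured on 2 arrays, the aromatase gene Cyp19a1 on 2 and the erythroid and Sertoli cell factor Gata1 on 3. Gata1 was above background on sorted arrays only (1 WT and 2 Fgf5-/-). Per array, 24 to 27 of the 39 genes were measured, and the cultured and sorted arrays overlapped in that number.

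**Figure D1:**
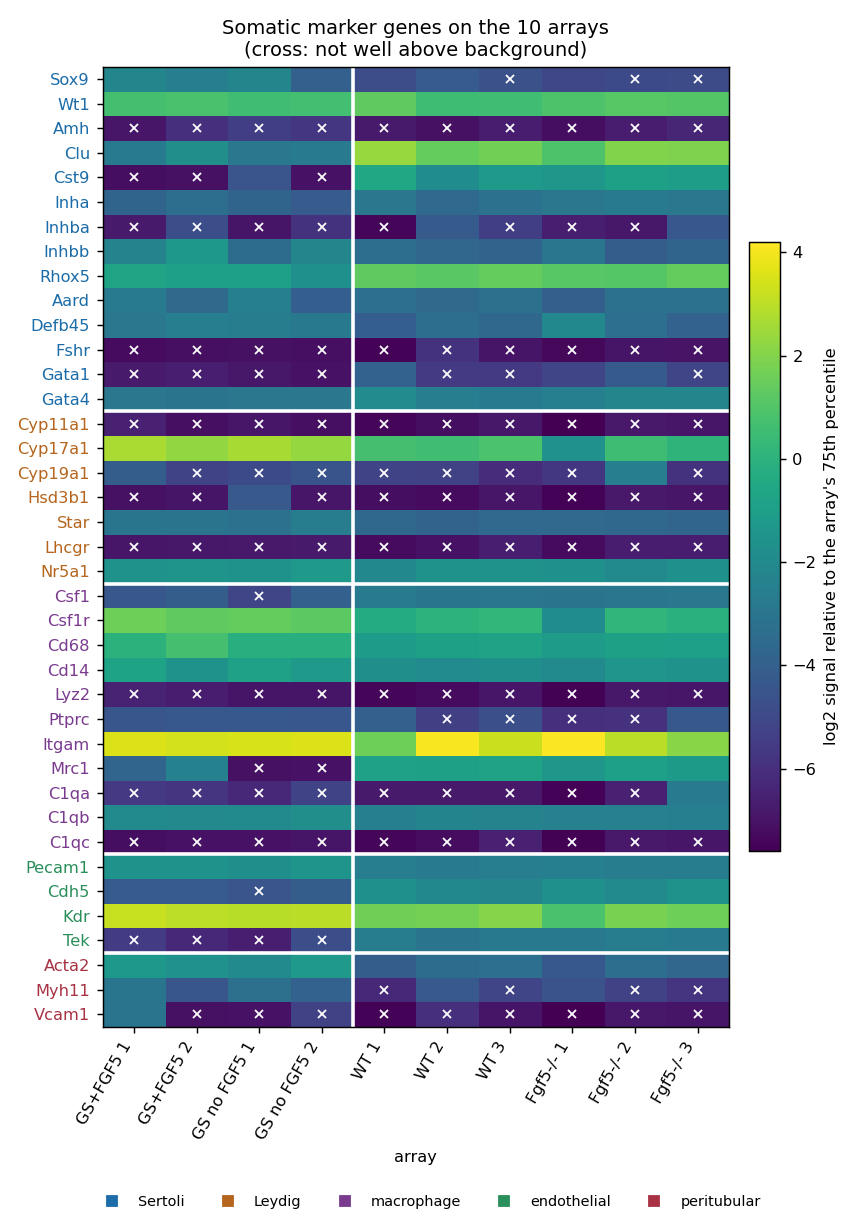
Level of the 39 marker genes with a probe (rows, coloured by class) on the 10 arrays (columns), as log2 signal minus the 75th percentile of the array. A cross stands for a probe not well above background on that array; 6 genes have a cross on all 10 arrays and 19 have none. Colours compare arrays within a row, since the brightness of different probes cannot be set against each other.

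The comparison of sorted with cultured cells asks in which material each marker was seen. It was tested with limma over all 10 arrays for 35823 probes, those that every array of 1 or more groups measured, with Benjamini-Hochberg adjustment. Of the 27 marker genes tested, 9 were higher and 12 lower in sorted cells, and 6 did not pass. Over all probes tested, 25.7% were higher and 41.9% lower, and 33.3% and 44.4% of the marker genes were, so the markers were called about as often as probes at large. The median difference was -0.49 over the marker genes and -0.26 over all probes. The median over all probes moved with the scaling: it was -0.13 after quantile normalization and -0.39 with a percentile of only those probes that all arrays measured, and the share of calls that were higher went from 38% to 44.6% and 31.4%. Among the 19 genes measured on all 10 arrays, 4 were higher and 10 lower (21.1% and 52.6%), against 29.1% and 35.4% of all probes so measured. Sertoli markers held 5 of the 9 higher genes, and every class with a tested gene held at least 1 that was lower.

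**Figure D2:**
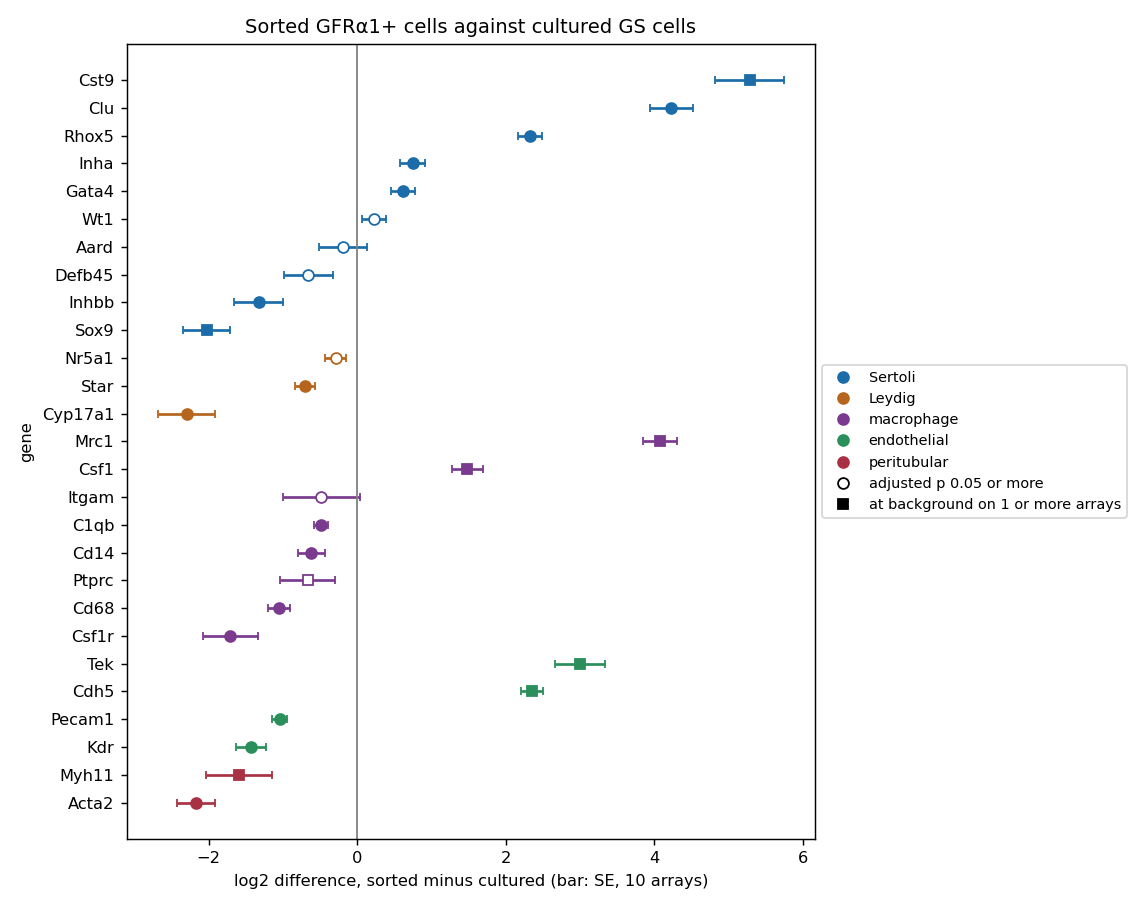
Log2 difference of sorted GFRα1+ cells minus cultured GS cells for the 27 marker genes tested (points, coloured by class; bars are the SE of the limma fit over 10 arrays). Cst9, Clu and Mrc1 lie furthest to the right, between 4.08 and 5.28, and Cyp17a1, Acta2 and Sox9 furthest to the left, between -2.30 and -2.03; open symbols did not pass the test and squares were at background on some array.

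Among the Sertoli markers, Cst9, Clu and Rhox5 were the highest in sorted against cultured cells. Clu encodes clusterin, a chaperone that Sertoli cells secrete in quantity. It read -2.68 and -1.75 with FGF5 and -2.88 and -2.77 without it, and 2.37, 1.43 and 1.71 in WT and 0.91, 1.95 and 1.92 in Fgf5-/- cells. The lowest sorted array lay far above the highest cultured one, and the difference was 4.23 ± 0.29 (SE), or 18.8-fold (adjusted p = 1.04e-05). Cst9 encodes a cystatin of Sertoli cells, an inhibitor of cysteine proteases. It read -7.16 and -7.05 with FGF5 and -4.51 and -7.01 without it, and -0.51, -1.86 and -1.28 in WT and -1.36, -0.90 and -0.98 in Fgf5-/- cells. It was well above background on all 6 sorted arrays and on 1 of the 4 cultured ones (without FGF5, replicate 1). The fitted difference was 5.28 ± 0.46 (SE, limma, adjusted p = 2.98e-05). Cst9 entered the test only through the sorted groups, so its p-value sets signal mostly against background. Rhox5 is a homeobox gene of the X chromosome that Sertoli cells express. It read -0.69 and -0.95 with FGF5 and -0.95 and -1.69 without it, and 1.33, 1.18 and 1.41 in WT and 1.13, 1.07 and 1.41 in Fgf5-/- cells. The 6 sorted arrays lay within a narrow range above all 4 cultured ones, with a difference of 2.33 ± 0.16 (SE), 5.02-fold (adjusted p = 1.04e-05). Inha, the inhibin α subunit, and Gata4, a zinc finger factor of Sertoli and Leydig cells, were higher by less (0.75 ± 0.17 SE and 0.62 ± 0.16 SE), and neither passed after normexp background correction, nor did Gata4 between WT and GS cells without FGF5 alone. Inha read -3.78 and -3.32 with FGF5 and -3.79 and -4.23 without it, and -2.88, -3.56 and -3.16 in WT and -2.94, -2.80 and -2.87 in Fgf5-/- cells.

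Sox9 and Wt1, transcription factors that define the Sertoli lineage, were not called higher. Sox9, the factor that directs the somatic cells of the fetal gonad into the Sertoli fate, read -2.19 and -2.56 with FGF5 and -2.22 and -4.00 without it, and -4.81, -4.20 and -4.67 in WT and -5.08, -4.94 and -4.92 in Fgf5-/- cells. All 4 cultured arrays measured it, but only 3 of the 6 sorted ones (WT replicates 1 and 2 and Fgf5-/- replicate 1), and it was lower in sorted cells, with a difference of -2.03 ± 0.32 (SE, adjusted p = 5.88e-04). With WT set against GS cells without FGF5 alone this difference was -1.45 and did not pass (adjusted p = 0.0727). Wt1, a zinc finger factor that Sertoli cells need to keep their identity, read 0.73 and 0.82 with FGF5 and 0.58 and 0.67 without it, and 1.31, 0.53 and 0.59 in WT and 0.91, 1.16 and 1.06 in Fgf5-/- cells. Its groups overlapped and the difference of 0.23 ± 0.16 (SE) did not pass (adjusted p = 0.243), although after normexp background correction Wt1 was called higher in sorted cells (0.36, adjusted p = 0.048). Inhbb, the activin βB subunit, was lower in sorted cells. It read -2.33 and -1.29 with FGF5 and -3.41 and -2.19 without it, and -3.34, -3.73 and -3.84 in WT and -2.98, -4.12 and -3.79 in Fgf5-/- cells, with a difference of -1.33 ± 0.33 (SE, adjusted p = 0.0072) that did not pass between WT and GS cells without FGF5 alone (-0.84, adjusted p = 0.124). The remaining measured genes, Aard and the β-defensin Defb45, differed by -0.19 ± 0.32 (SE) and -0.66 ± 0.33 (SE) and did not pass, and the sign of Aard turned under quantile normalization (0.26). Defb45 read -2.90 and -2.57 with FGF5 and -2.59 and -2.84 without it, and -4.07, -3.33 and -3.61 in WT and -2.08, -3.30 and -3.90 in Fgf5-/- cells. Defb45 was called lower in sorted cells without Fgf5-/- replicate 1 (-0.91, adjusted p = 0.00533) and between WT and GS cells without FGF5 alone (-0.96, adjusted p = 0.0251).

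The mean level of the 8 Sertoli genes measured on all 10 arrays was higher in sorted cells by 0.75, against an SD between replicates of 0.15. Clu and Rhox5 carried this mean, and over the other 6 genes, a choice made after seeing the data, the mean difference was -0.10. The linear levels of the 14 genes, summed in units of the 75th percentile, ran from 3.37 to 3.72 in GS cells with FGF5, 2.77 to 3.1 without it, 7.36 to 11.7 in WT and 7.14 to 9.77 in Fgf5-/- cells. Of 10 further Sertoli cell genes, 8 were tested and 5 were higher in sorted cells. The higher ones were Dhh, the hedgehog ligand of Sertoli cells (2.66 ± 0.17 SE), Cldn11, a tight junction protein of the blood-testis barrier (2.45 ± 0.42 SE), Gdnf, the ligand of GFRα1, and Trf and Ctsl (1.23 and 0.99). Dhh was measured on 2 of the 4 cultured arrays, Cldn11 on 1 and Gdnf on none, and Gdnf on 5 of the 6 sorted ones. Amh and Fshr stayed at background on all of these arrays. The part of Sertoli cell RNA in the levels of Clu, Cst9 and Rhox5 was not tested.

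Promoters are shown for the 4 marker genes that were more than 4-fold higher in the fit and have an entry in the RefSeq promoter table of GRCm38.p6 (23 of the 39 genes have one): Cst9, Rhox5, the macrophage gene Mrc1 and the endothelial gene Tek. Each run is the 250 bases before the transcription start on the strand of the gene, and capitals mark GAGGAA or its reverse complement TTCCTC, core letters of sites of the myeloid factor PU.1.
Cst9 promoter, chr2:148834897-148835146: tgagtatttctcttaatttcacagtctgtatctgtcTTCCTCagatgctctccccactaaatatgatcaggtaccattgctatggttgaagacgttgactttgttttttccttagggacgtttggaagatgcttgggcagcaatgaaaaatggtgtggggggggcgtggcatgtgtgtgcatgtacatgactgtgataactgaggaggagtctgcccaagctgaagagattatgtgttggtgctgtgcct
Rhox5 promoter, chrX:37754358-37754607: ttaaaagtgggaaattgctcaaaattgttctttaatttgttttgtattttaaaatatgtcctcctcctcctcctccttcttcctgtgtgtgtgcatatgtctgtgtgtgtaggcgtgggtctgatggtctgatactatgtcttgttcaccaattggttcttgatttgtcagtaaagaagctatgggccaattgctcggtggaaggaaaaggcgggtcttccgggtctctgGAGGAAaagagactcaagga
Mrc1 promoter, chr2:14229164-14229413: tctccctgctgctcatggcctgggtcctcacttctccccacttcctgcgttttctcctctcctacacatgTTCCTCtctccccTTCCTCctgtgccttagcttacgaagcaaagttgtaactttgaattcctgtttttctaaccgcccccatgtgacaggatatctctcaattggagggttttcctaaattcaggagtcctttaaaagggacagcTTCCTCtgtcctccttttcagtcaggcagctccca
Tek promoter, chr4:94739039-94739288: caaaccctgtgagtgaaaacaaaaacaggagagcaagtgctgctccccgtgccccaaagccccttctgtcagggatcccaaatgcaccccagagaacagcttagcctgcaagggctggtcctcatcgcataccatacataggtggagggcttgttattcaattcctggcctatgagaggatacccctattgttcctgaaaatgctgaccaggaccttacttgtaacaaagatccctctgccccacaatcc
All 4 genes lie on the + strand. GAGGAA was found in 3 of the 4, with 3 copies in Mrc1 and none in Tek, and in 23.3% of the 32851 promoters of the table over the same 250 bases on both strands. It was in 14 of the 27 promoters that the table holds for the 23 marker genes. A further 3 motifs were searched on both strands, and 0 of these 4 promoters held any. The first was AGATAA, for the GATA factors, found in 9.99% of all promoters and 2 of the 27 of marker genes. The second was AAGGTCA, for Nr5a1, found in 4.08% and in 0 of the 27. The third was TATAAA, for the TATA box, found in 12.4% and in 4 of the 27. Whether any motif was enriched among the marker genes was not tested. No searched motif is contained in another. These promoters hold 3, 4, 3 and 2 CpG dinucleotides in the order shown, where the median promoter holds 6. The matches describe letters and not binding sites.

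Of the Leydig cell markers, 2 were lower in sorted cells, 1 did not pass and none was higher. Cyp17a1 encodes the 17α-hydroxylase that turns progesterone into androgen precursors. It read 2.70 and 2.28 with FGF5 and 2.67 and 2.32 without it, and 0.74, 0.56 and 0.88 in WT and -1.64, 0.53 and 0.09 in Fgf5-/- cells. Every sorted array lay below every cultured one, with a difference of -2.30 ± 0.38 (SE) or 4.92-fold (adjusted p = 8.67e-04), and without Fgf5-/- replicate 1 the difference was -1.97. Star, which carries cholesterol into the mitochondrion, read -3.03 and -3.04 with FGF5 and -3.18 and -2.62 without it, and -3.65, -3.86 and -3.56 in WT and -3.55, -3.62 and -3.76 in Fgf5-/- cells. It was lower in sorted cells, with a difference of -0.70 ± 0.13 (SE, adjusted p = 0.00159), although not after quantile normalization (-0.27, adjusted p = 0.128), and its second probe did not pass (-0.55 ± 0.30 SE). Nr5a1, the nuclear receptor SF-1 that drives steroid enzyme genes, read -1.56 and -1.49 with FGF5 and -1.54 and -1.28 without it, and -2.09, -1.55 and -1.60 in WT and -1.67, -1.95 and -1.69 in Fgf5-/- cells. Its difference of -0.29 ± 0.14 (SE) did not pass and lay close to the median of all probes, but it was called lower after normexp (-0.35, adjusted p = 0.015) and with a percentile of only those probes that all arrays measured (-0.42, adjusted p = 0.0348). The mean of the 3 genes measured on all arrays was lower in sorted cells, with a difference of -1.10, against an SD between replicates of 0.19. Cyp17a1 carried most of this difference. Summed over the 7 genes, the linear level ran from 5.39 to 7.03 in GS cells with FGF5, 5.63 to 6.93 without it, 1.93 to 2.3 in WT and 0.758 to 1.98 in Fgf5-/- cells. Cyp17a1 was the largest term of this sum on every array, and most of it on all but Fgf5-/- replicate 1. Cyp11a1, Hsd3b1 and Lhcgr were at background on all 6 sorted arrays, so that Cyp17a1 was measured there without Cyp11a1 and Hsd3b1, the enzymes before it in the pathway. Of 9 further Leydig cell genes, 6 were tested, 3 were higher and 2 lower. Ptgds, a prostaglandin D synthase, was the highest (1.90 ± 0.26 SE). Cyp2a4, at background on all 6 sorted arrays, was at least 3.3-fold lower (limma, adjusted p = 6.68e-06), and entered the test only through the cultured groups.

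Macrophage markers moved in opposite directions. Mrc1, the mannose receptor CD206 of tissue macrophages, read -3.75 and -2.43 with FGF5 and -7.09 and -7.02 without it, and -0.87, -0.88 and -0.79 in WT and -1.35, -0.92 and -1.18 in Fgf5-/- cells. All 6 sorted arrays measured it and 2 of the 4 cultured ones, those with FGF5. The fitted difference was 4.08 ± 0.23 (SE, adjusted p = 4.52e-06). Csf1, the growth factor of macrophages, read -4.40 and -4.10 with FGF5 and -5.13 and -4.00 without it, and -2.67, -3.01 and -2.97 in WT and -3.05, -2.96 and -2.86 in Fgf5-/- cells, higher in sorted cells by 1.48 ± 0.21 (SE, adjusted p = 3.53e-04). Other probes of Csf1 were at background on all 6 sorted arrays and gave no test. The brighter of them was above background on 1 of the 4 cultured arrays. The receptor of Csf1 went the other way. Csf1r read 1.58 and 1.31 with FGF5 and 1.42 and 1.23 without it, and -0.33, 0.02 and 0.19 in WT and -1.87, 0.17 and -0.12 in Fgf5-/- cells, lower in sorted cells, with a difference of -1.71 ± 0.37 (SE, adjusted p = 0.00346). Cd68, a lysosomal glycoprotein of macrophages, read 0.00 and 0.72 with FGF5 and -0.19 and -0.15 without it, and -1.10, -0.91 and -0.81 in WT and -1.09, -0.90 and -0.92 in Fgf5-/- cells, lower in sorted cells with a difference of -1.05 ± 0.15 (SE, adjusted p = 3.51e-04). A second probe of Cd68 was above background on only 2 of the 10 arrays and gave no test. Cd14, the co-receptor for lipopolysaccharide, and C1qb, a chain of C1q, were lower, with differences of -0.62 ± 0.18 (SE) and -0.49 ± 0.09 (SE). Neither passed after quantile normalization, and Cd14 also fell short without replicate 1 of either cultured group (adjusted p = 0.0513 and 0.0627).

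Ptprc encodes CD45, the phosphatase on all leukocytes. It read -4.42 and -4.36 with FGF5 and -4.35 and -4.41 without it, and -3.99, -5.37 and -4.71 in WT and -5.96, -5.91 and -4.36 in Fgf5-/- cells. It was measured on the 4 cultured arrays and on 2 of the 6 sorted ones, and its difference did not pass (-0.67 ± 0.37 SE, adjusted p = 0.139), although it did without Fgf5-/- replicate 3 (-0.93, adjusted p = 0.0153) and after normexp (-0.45, adjusted p = 0.00425). Lyz2 and C1qc were at background on all 10 arrays and C1qa on all but Fgf5-/- replicate 3. Among the defining macrophage markers Lyz2, Csf1r, Cd68, Ptprc and C1qa, Csf1r and Cd68 were lower in sorted cells, Ptprc did not pass, and Lyz2 and C1qa were measured on too few arrays to be tested. The mean of the 5 macrophage genes measured on all arrays was lower in sorted cells, with a difference of -0.87, against an SD between replicates of 0.19. This mean includes Itgam on its brightest probe. Without Itgam, whose brightest probe is described below, the summed linear level of the other 10 genes was 5.04 on both arrays of GS cells with FGF5 and ran from 4.13 to 4.48 without it, 2.53 to 2.99 in WT and 1.73 to 2.91 in Fgf5-/- cells. With Itgam it ran from 15.5 to 17 in GS cells with FGF5, 15.7 to 16 without it, 5.55 to 19.9 in WT and 7.1 to 19.2 in Fgf5-/- cells, and the WT and Fgf5-/- arrays then spanned the cultured ones. Of 10 further macrophage genes, 6 were tested, 2 were higher (Fcer1g, the Fc receptor γ chain, 1.52 ± 0.11 SE, and Aif1, 1.43 ± 0.51 SE) and 2 lower (Emr1, the F4/80 antigen, -0.82 ± 0.29 SE, and Tyrobp, the adaptor DAP12). Tyrobp was above background on 3 of the 4 cultured arrays and on 0 of the 6 sorted ones.

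On their brightest probes, 2 of the 4 endothelial genes were higher and 2 lower in sorted cells. Tek, the angiopoietin receptor TIE2, read -5.51 and -6.22 with FGF5 and -6.63 and -4.74 without it, and -2.65, -3.04 and -2.81 in WT and -2.82, -2.59 and -2.75 in Fgf5-/- cells. It was at background on all 4 cultured arrays and above it on all 6 sorted ones. This makes it at least 4.22-fold higher in sorted cells (limma, adjusted p = 1.00e-04). Tek entered the test only through the sorted groups, so its p-value sets signal against background and adds no support of its own. Cdh5, the VE-cadherin of endothelial junctions, read -4.14 and -4.19 with FGF5 and -4.49 and -4.11 without it, and -1.68, -2.11 and -2.21 in WT and -1.70, -1.99 and -1.60 in Fgf5-/- cells, higher by 2.35 ± 0.15 (SE, adjusted p = 6.86e-06), with 3 of the 4 cultured arrays above background. Pecam1, the adhesion molecule CD31, read -1.55 and -1.55 with FGF5 and -1.71 and -1.49 without it, and -2.57, -2.78 and -2.55 in WT and -2.51, -2.67 and -2.65 in Fgf5-/- cells, lower in sorted cells with a difference of -1.05 ± 0.10 (SE, adjusted p = 4.43e-05). No sorted array of Pecam1 reached a cultured one, and neither material spread as far as the gap between them. Kdr, the VEGF receptor 2, read 3.20 and 3.01 with FGF5 and 2.95 and 3.00 without it, and 1.65, 1.73 and 2.04 in WT and 0.81, 1.84 and 1.60 in Fgf5-/- cells on its brightest probe, lower in sorted cells with a difference of -1.43 ± 0.20 (SE, adjusted p = 3.45e-04), where a second probe described below went the other way. Summed over the 4 genes, the linear level ran from 8.47 to 9.63 in GS cells with FGF5, 8.06 to 8.46 without it, 3.77 to 4.63 in WT and 2.37 to 4.17 in Fgf5-/- cells, a sum that the brightest probe of Kdr dominates. The mean of Pecam1 and Kdr, the genes measured on all arrays, differed by -1.24, against an SD between replicates of 0.15, and with the second probe of Kdr in place of the brightest, a choice made after seeing the data, by 0.60. Tek and Cdh5 are not in this mean. Of 10 further endothelial genes, 6 were tested, 2 were higher and 1 lower. Flt1, the VEGF receptor 1, was higher (2.22 ± 0.28 SE) and Vwf, the von Willebrand factor, lower (-4.13 ± 0.37 SE), while Emcn and Tie1 were at background on all 10 arrays.

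Both peritubular genes tested were lower in sorted cells. Acta2, the smooth muscle actin of myoid cells, read -1.32 and -1.61 with FGF5 and -1.94 and -1.27 without it, and -4.11, -3.43 and -3.31 in WT and -4.35, -3.33 and -3.73 in Fgf5-/- cells. The difference was -2.18 ± 0.25 (SE), 4.52-fold (adjusted p = 1.26e-04), and no sorted array reached a cultured one. Myh11, the smooth muscle myosin heavy chain, read -3.00 and -4.44 with FGF5 and -3.23 and -3.90 without it, and -6.22, -4.31 and -5.13 in WT and -4.57, -5.34 and -5.82 in Fgf5-/- cells. It was measured on all cultured arrays and on 2 of the 6 sorted ones (WT replicate 2 and Fgf5-/- replicate 1). The difference of -1.59 ± 0.45 (SE) passed (adjusted p = 0.0124), but not without replicate 1 of the cultured cells with FGF5 (adjusted p = 0.0554) or without it (0.0519). Summed over the 3 genes, the linear level ran from 0.381 to 0.646 in GS cells with FGF5, 0.375 to 0.509 without it, 0.0769 to 0.159 in WT and 0.0965 to 0.133 in Fgf5-/- cells. Further peritubular genes did not follow Acta2: of 10, 8 were tested, 5 were higher, among them Pdgfrb, the PDGF receptor β (at least 3.11-fold), and Cnn1, calponin (1.99 ± 0.35 SE), and 1 was lower (Tagln, transgelin, -0.91 ± 0.16 SE). Among 10 fibroblast genes, 9 were tested, 5 were lower and 2 higher. Col1a2, a chain of type I collagen, was lower, with a difference of -3.66 ± 0.23 (SE), and the part of fibroblasts in the level of Acta2 was not tested.

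**Figure D3:**
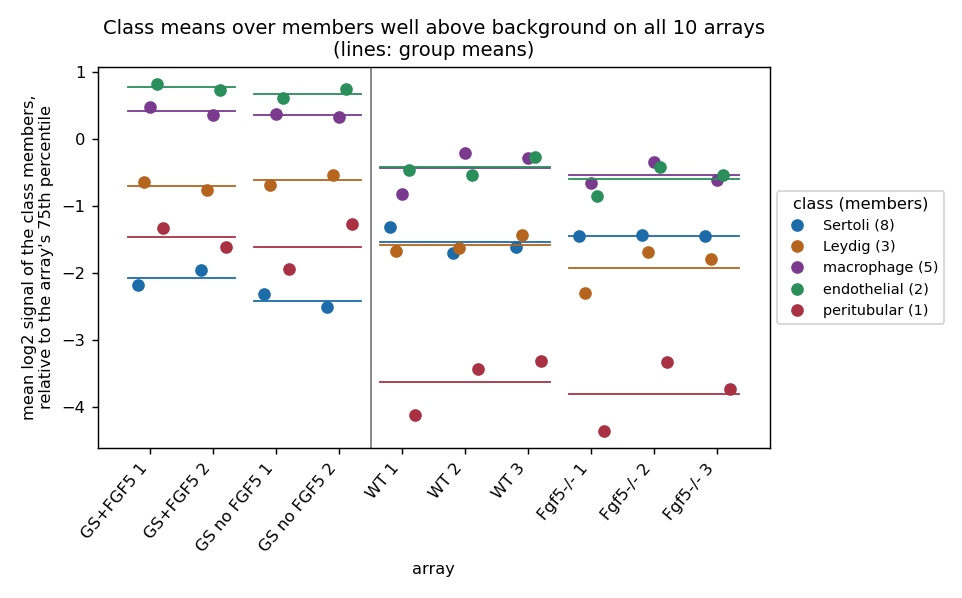
Mean log2 level of each marker class on each array (points), over the class members well above background on all 10 arrays (number in the legend); lines are group means. Sertoli means lie between -2.51 and -1.96 in cultured and between -1.69 and -1.31 in sorted arrays, while the means of the other classes are lower in sorted arrays on these probes; the endothelial mean is Pecam1 and the brightest probe of Kdr, and turns to 0.60 with its second, and the peritubular class is Acta2 alone. Classes rest on different probes, so only arrays can be compared.

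Several results turned on the probe. Kdr had a second probe, printed in 10 spots, whose position in mm9 was 1086 bases from the brightest one (chr5:76330395-76330454 and chr5:76329309-76329368, both on the - strand). Itgam, the integrin CD11b of myeloid cells, had 3, at chr7:135261755-135261814, chr7:135212140-135212199 and chr7:135260275-135260334, all on the + strand. The first 30 of the 60 bases of each are shown because these probes of 1 gene gave different results, and capitals mark a repeat of 2 bases.
Kdr, brightest probe: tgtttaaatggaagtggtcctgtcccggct
Kdr, second probe: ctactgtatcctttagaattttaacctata
Itgam, brightest probe: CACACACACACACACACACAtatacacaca
Itgam, next probe: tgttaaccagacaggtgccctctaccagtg
Itgam, dimmest probe: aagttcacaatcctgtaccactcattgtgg
The second probe of Kdr read -2.05 and -0.99 with FGF5 and -3.07 and -3.02 without it, and 0.05, 0.33 and 0.08 in WT and -0.06, -0.26 and -0.31 in Fgf5-/- cells. All sorted arrays lay above all cultured ones, a difference of 2.26 ± 0.20 (SE, adjusted p = 2.87e-05), opposite in sign to the brightest probe. With the probes of each gene averaged, Kdr was higher in sorted cells (0.41, adjusted p = 0.0182). The direction of Kdr between sorted and cultured cells is thus not settled by these arrays.

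The brightest probe of Itgam opens with 20 bases of CA repeat. No other probe of the marker genes held such a repeat of more than 6 bases, and 0.158% of all 55681 probes held one of 20 or more. It read 3.58 and 3.39 with FGF5 and 3.49 and 3.57 without it, and 1.60, 4.11 and 3.24 in WT and 4.13, 2.96 and 2.12 in Fgf5-/- cells. The sorted arrays spread to both sides of the cultured ones, with WT replicate 2 and Fgf5-/- replicate 1 highest, and the difference did not pass (-0.48 ± 0.52 SE). The dimmest probe was highest on the same pair of arrays, at -1.55 and -1.85, where the other 4 sorted arrays read -4.07 to -3.57. The next probe, which has no repeat, read -2.12 and -2.09 with FGF5 and -2.09 and -1.85 without it, and -3.56, -3.41 and -3.44 in WT and -3.24, -3.29 and -3.45 in Fgf5-/- cells. It was lower in sorted cells, with a difference of -1.36 ± 0.10 (SE, adjusted p = 1.18e-05), with no overlap. Csf1r had 3 probes that were all lower in sorted cells. The next brightest differed by -0.61 ± 0.14 (SE), and the dimmest, at background on all 6 sorted arrays, was at least 2.51-fold lower there.

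**Figure D4:**
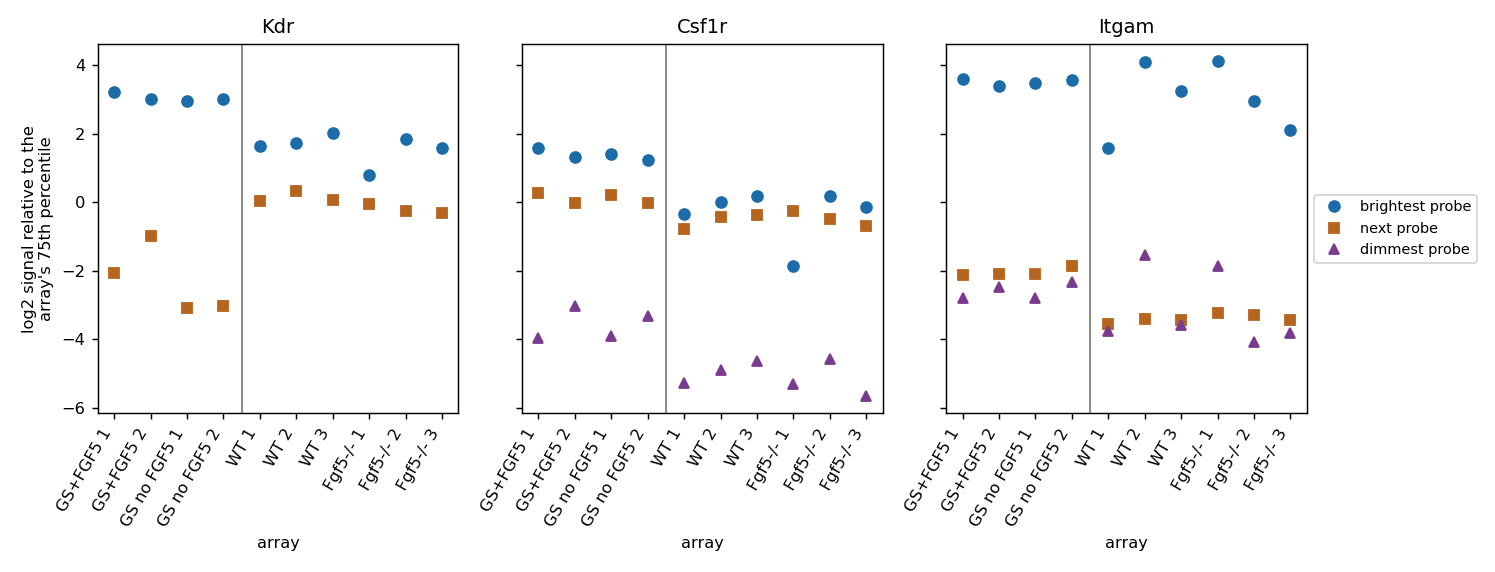
Level of each probe of Kdr, Csf1r and Itgam on the 10 arrays (log2 signal minus the 75th percentile of the array; 1 symbol per probe, cultured arrays left of the grey line). The Kdr probes go opposite ways from cultured to sorted arrays, and the low value of Fgf5-/- replicate 1 for Csf1r appears on the brightest probe alone.

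The comparison of GS cells with and without FGF5 asks whether the factor changed these genes in culture. No marker gene passed the adjustment, as no probe of the 34608 tested did (0% called). At an unadjusted p under 0.05, limma counted 882 probes, or 2.55%, and 1 of the 25 marker genes tested. The 2 samples with FGF5 did not overlap the 2 without it for 8 of the 25 genes (32%), against 22.8% of all probes. Mrc1 was the gene that passed unadjusted. Mrc1 entered this test only through the group with FGF5, so its p-value sets signal against background and adds no support of its own. It was above background on both arrays with FGF5, at -3.75 and -2.43, and on neither without it, at -7.09 and -7.02, which makes it at least 3.47-fold higher with FGF5 on these arrays, although it did not pass the adjustment (limma, adjusted p = 1). The next largest differences were those of Inhbb (0.99 ± 0.55 SE), Sox9 (0.73 ± 0.62 SE), Clu (0.61 ± 0.34 SE) and Cd68 (0.52 ± 0.28 SE), each with an adjusted p of 1. Inhbb read -2.33 and -1.29 with FGF5 against -3.41 and -2.19 without, so the groups overlapped, and without replicate 1 of the cells lacking FGF5 the difference was 0.38. In Sox9 the difference rested on 1 array, GS cells without FGF5 replicate 2, and without it the sign turned (-0.16). Clu and Cd68 differed by 0.14 and 0.16 without replicate 2 of the cells with FGF5. By class, the median difference of the 9 Sertoli genes was 0.46. The medians of the Leydig, macrophage and endothelial genes were -0.12, 0.06 and 0.13, where all probes had -0.03. Class medians were not tested, and the Sertoli one includes Inhbb, Sox9 and Clu, whose differences moved with single arrays. Cyp17a1 differed by -0.01 ± 0.24 (SE). The second probe of Kdr differed by 1.52 ± 0.38 (SE, adjusted p = 1), and the brightest by 0.13 ± 0.17 (SE).

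**Figure D5:**
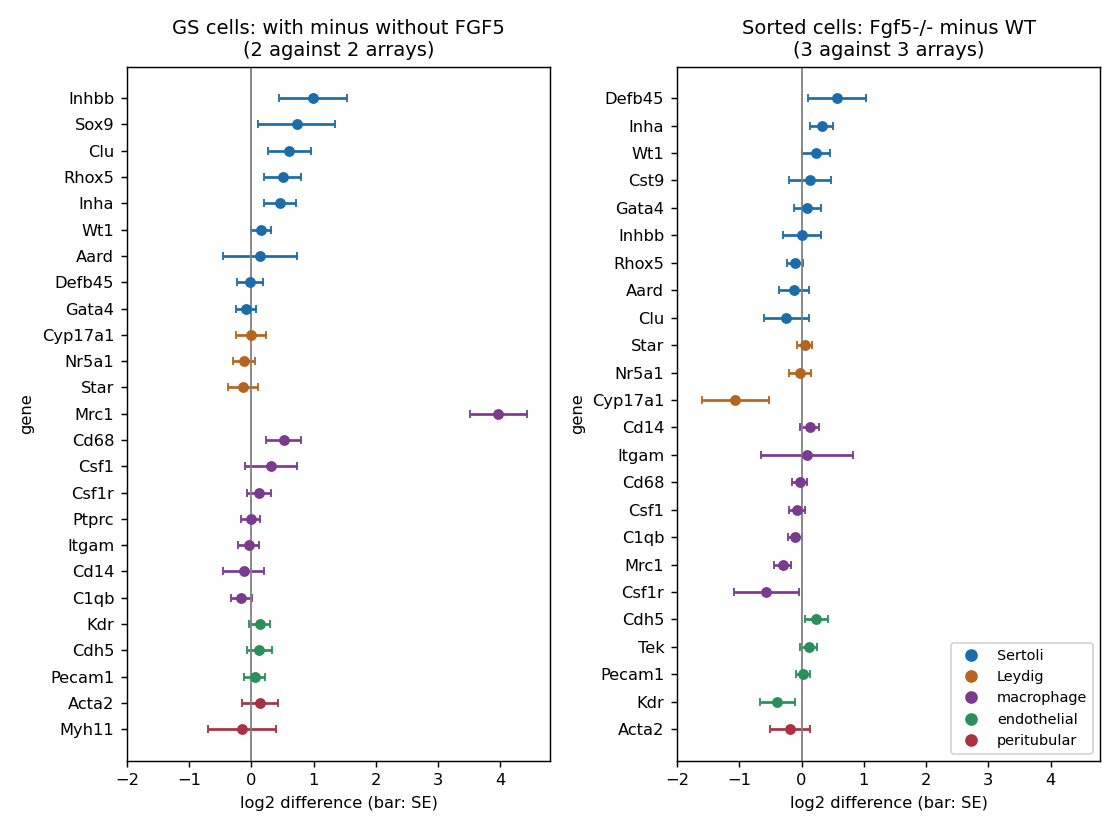
Log2 difference of the marker genes tested (points, coloured by class; bars are the SE of the limma fit) for GS cells with minus without FGF5 (left, 25 genes) and for sorted Fgf5-/- minus WT cells (right, 24 genes). No gene passed the adjustment in either; Mrc1 stands apart on the left at 3.97, a fitted value in which both arrays without FGF5 are at background, and Cyp17a1 on the right at -1.06.

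The comparison of sorted Fgf5-/- with WT cells asks whether loss of the ligand changed them in vivo. No probe of 30283 passed the adjustment (0% called), and so no marker gene did. Without adjustment, limma gave 2051 probes (6.77%) under 0.05, and 0 of the 24 marker genes tested. The WT and Fgf5-/- arrays did not overlap for 2 of the 24 genes (8.33%), against 16.2% of all probes: Cyp17a1 and Mrc1. The medians over the 24 genes and over all probes were -0.01 and -0.03. Cyp17a1 had the largest difference, -1.06 ± 0.54 (SE, adjusted p = 0.742). All 3 Fgf5-/- arrays lay below the 3 WT ones, but replicate 1, at -1.64, was far below the other 2, and without it the difference was -0.41 (adjusted p = 0.569). Defb45 came next, at 0.57 ± 0.46 (SE). It read -4.07, -3.33 and -3.61 in WT and -2.08, -3.30 and -3.90 in Fgf5-/- cells, and differed by 0.07 without replicate 1. Csf1r differed by -0.57 ± 0.52 (SE), and without replicate 1 the sign turned (0.06), and the next brightest probe of the gene differed by 0.06 ± 0.17 (SE). Kdr, at -0.39 ± 0.28 (SE), was -0.08 without it. Inha differed by 0.33 ± 0.18 (SE), with WT arrays from -3.56 to -2.88 and Fgf5-/- arrays from -2.94 to -2.80, which overlapped. Mrc1 differed by -0.30 ± 0.14 (SE, adjusted p = 0.732). The Sertoli genes that stood high in sorted cells, Clu, Cst9 and Rhox5, differed between the genotypes by -0.25 ± 0.36 (SE), 0.14 ± 0.34 (SE) and -0.11 ± 0.14 (SE), and Wt1 by 0.23 ± 0.22 (SE). Intervals of this width do not show that the genotypes were alike. The second probe of Kdr differed by -0.36 ± 0.13 (SE, adjusted p = 0.729) and did not pass. In the 3 Fgf5-/- arrays no gene of the further somatic lists passed the adjustment, and their median differences were -0.08 for Sertoli, -0.21 for Leydig, 0.72 for macrophage (3 genes tested), -0.07 for endothelial and -0.02 for peritubular genes.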

How the data were processed

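RNA of 10 samples was hybridized to 1-colour Agilent 8x60K mouse arrays. The authors deposited, for each array, the Feature Extraction output, which holds a processed, background-subtracted intensity of each spot on a linear scale. The labels name Feature Extraction 10.7.3.1 and the file headers 10.7.1.1. The authors also deposited a table of log2 values made in GeneSpring with a floor of 1 and a shift to the 75th percentile, which differs from the values used here by a constant of 0.13 to 0.20 per array.

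The levels were made anew with limma 3.58.1 under R 4.3.3 (files read by the package data.table, version 1.17.8) as log2 of the processed signal with a floor of 1 (0 spots were below it and 0 saturated), without the 117 to 205 spots per array marked uneven or outlying, averaged per probe over the spots, minus the 75th percentile of the non-control spots. Gene names and probe sequences came from the files of the cultured arrays, which alone hold them, joined by probe to the sorted ones. A probe entered a test if all arrays of any 1 of the compared groups measured it above background. A gene at background in a whole group is given as at least a fold, from the mean of the group that measured it against the higher of its own signal and the lowest signal among probes above background on each array, with no measured fold. Precision is limited by the few arrays. Differences were tested two-sided by lmFit and eBayes, and p-values adjusted by Benjamini and Hochberg's method over all tested probes, with a threshold of 0.05: 4 group means for sorted against cultured cells, and each experiment alone for the other comparisons. The fits were tested on simulated data.

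The marker genes, the further lists and the tests were chosen with earlier results of these data known. All 40 genes are accounted for; values of every array are given for the defining markers, for the 2 highest and 2 lowest genes of each class in the comparison of sorted with cultured cells, and the 5 largest differences of the other comparisons are named. A result of the further Sertoli list is not reported here. The second probes, the printed sequences and the motifs were chosen after their values were seen. Promoters are from RefSeq (GRCm38.p6), and probe positions are those of the files (mm9). The alternatives were quantile normalization, another percentile, the deposited table, normexp with an offset of 50, no or a stricter filter, all spots kept, a variance trend, the mean of a gene's probes, WT against GS cells without FGF5 alone, the replicate number as a block, and leaving out each array.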

Additional observations from a re-analysis of the deposited data

How the results depend on the processing

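In the comparison of sorted with cultured cells, 9 marker genes were higher under the main settings and 4 when a probe had to be well above background on every array, a filter that tests fewer genes. Leaving out single arrays gave 9 to 10 higher and 10 to 13 lower genes. The difference of Aard was 0.26 after quantile normalization and ran from -0.58 to 0.20 without single arrays, and that of Kdr was 0.41 with the probes of a gene averaged. The mean difference of the Sertoli class was 1.04 after quantile normalization, and that of Acta2, the peritubular class, was -1.54 after normexp, and the cause was not tested. The difference of Sox9 between GS cells with and without FGF5 ran from -0.16 to 1.62 without single arrays. Between Fgf5-/- and WT cells, that of Csf1r ran from -0.96 to 0.064, and was 0.094 without WT replicate 2 and Fgf5-/- replicate 1 together, a setting chosen after seeing the data. In that comparison 0 probes passed limma with all arrays and 0 to 6 without single arrays, and no marker gene did. The remaining values kept their direction. Over the alternatives of single genes, 14 values lost a call, 8 gained one, and 685 stayed on their side of the threshold, called or not.

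The replicate numbers were tried as a block. Deviations from the group means of same-numbered samples correlated at 0.64 for the GS cells, where there are too few pairs to decide, and at -0.42, -0.16 and -0.15 for the sorted cells, so the numbers were not taken as a pairing. With the block, limma called 0 probes in either comparison (2549 and 1561 at an unadjusted p under 0.05, against 882 and 2051 without it), the difference of Mrc1 with FGF5 had an adjusted p of 0.260, and that of Cyp17a1 in Fgf5-/- cells one of 0.887. Slide and scan were not run as a block, because each experiment lay on 1 slide with 1 scan.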
